A study of Homo sapiens with 9 samples.

Results

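The RNA of HNRNPU and 9 other genes of heterogeneous nuclear ribonucleoproteins (hnRNPs) was followed in MIA PaCa-2, a widely used human line from a pancreatic cancer, after inhibition of ERK1/2 or of the TANK-binding kinase 1 (TBK1)/IKKε pair. The 10 genes were HNRNPU, HNRNPA1, HNRNPA2B1, HNRNPC, HNRNPD, HNRNPF, HNRNPH1, HNRNPK, HNRNPL and HNRNPM, taken by gene name from a table of 58735 genes, of which 29048 had any count. All cells were of the same line and were treated for 24 h with 0.1% DMSO (the control), 1 μM compound 1 (the TBK1/IKKε inhibitor) or 1 μM SCH772984 (the ERK1/2 inhibitor), with 3 RNA-Seq libraries per condition. The labels do not say whether the libraries came from separate cultures, so p-values measure only the spread between these libraries, which may be technical. Each inhibitor was used at 1 dose and 1 time, so the values describe this line under these conditions.

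hnRNPs bind nascent transcripts in the nucleus. They package pre-mRNA, repress or promote the inclusion of exons, and several shuttle to the cytoplasm, where they act on mRNA stability and translation. HNRNPU, also named scaffold attachment factor A, binds both RNA and chromatin-associated DNA and takes part in the organisation of interphase chromatin. ERK1/2 is the last kinase of a mitogen-activated protein kinase cascade that promotes cell growth, and TBK1 and IKKε are related kinases known from innate immune signaling.

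Library totals were 9464432 to 10286223 counts with DMSO, 9652741 to 9840769 with compound 1 and 11056977 to 13887859 with SCH772984. Libraries were scaled by total count and by TMM factors, which were 0.949 to 0.994 with DMSO or compound 1 and 1.07 in the SCH772984 libraries. Values named CPM are counts scaled in this way (TMM-normalized counts relative to library size). They are relative to the other RNAs of the library, so a lower value cannot be told apart from more RNA of other genes, and fewer cells cannot be told apart from less RNA per cell. Compound 1 replicate 1 stood apart. Its counts differed from those of the other two compound 1 libraries by a chi-square of 10.1 and 7.61 per degree of freedom, against 2.66 between those libraries, 2.34 to 3.15 among the DMSO libraries and 4.03 to 6.40 among the SCH772984 libraries.

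Of the epithelial markers, KRT8, KRT18 and KRT19 were present in every library, EPCAM was at 0 in all and CDH1 did not pass 0.415 CPM. The summed level of this list was 3463 to 3726 CPM with DMSO, 2967 to 3735 with compound 1 and 1129 to 1277 with SCH772984. KRT8 and KRT18 fell with SCH772984 (log2 fold changes -1.69 and -2.40), while KRT19 stood at 227 to 278 CPM with DMSO and 251 to 289 CPM with SCH772984. The mesenchymal genes VIM and ZEB1, known of this line, were present in all libraries and fell with SCH772984 (log2 fold changes -0.23 and -0.61). Leukocyte, acinar and islet markers were at 0 except CD68, at 0.107 in 1 library. Of the 3 endothelial markers PECAM1 and VWF did not pass 0.268 CPM, and CDH5 stood at 2.87 to 4.41 CPM with DMSO, 6.22 to 6.77 with compound 1 and 0 to 0.268 with SCH772984. The summed level of that list was 2.87 to 4.48, 6.22 to 6.77 and 0 to 0.536 CPM. The 3 fibroblast markers summed to 6.88 to 8.19 with DMSO, 5.08 to 7.41 with compound 1 and 50.1 to 59.5 with SCH772984, mostly COL3A1. The part of these shifts in the results on the hnRNP genes was not tested. Of 13 ERK output genes 12 could be tested, and these 12 fell with SCH772984, where 35.5% of all genes tested fell. Their median log2 fold change was -3.55, against 0.03 over all genes. SPRY4, a feedback inhibitor of the pathway, went from 2064 to 2303 counts with DMSO to 19 to 41 counts, and DUSP6, a phosphatase that acts on ERK, from 25 to 51 counts to 0 to 1.

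The genomic places of the genes were read from GENCODE release 29 on GRCh38 (hg38), whose identifiers, names and coordinates matched the whole table. HNRNPU (ENSG00000153187) lies at chr1:244840638-244864560 on the minus strand, HNRNPA1 (ENSG00000135486) at chr12:54280193-54287088 on the plus strand and HNRNPA2B1 (ENSG00000122566) at chr7:26173057-26201529 on the minus strand. HNRNPC (ENSG00000092199) is at chr14:21209136-21269494 and HNRNPD (ENSG00000138668) at chr4:82352498-82374503, both on the minus strand. HNRNPF (ENSG00000169813) is at chr10:43385617-43409166, HNRNPH1 (ENSG00000169045) at chr5:179614178-179634784 and HNRNPK (ENSG00000165119) at chr9:83968083-83980616, all on the minus strand. HNRNPL (ENSG00000104824) is at chr19:38836388-38852347 on the minus strand and HNRNPM (ENSG00000099783) at chr19:8444767-8489114 on the plus strand. Transcripts that retain introns are annotated for 9 of the 10 genes, HNRNPF having none. Of the 31 annotated HNRNPU transcripts, 10 are of the retained-intron type and 10 are protein coding, and of the 50 HNRNPH1 transcripts 16 are of the retained-intron type. Annotated exons cover 94.1% of the 23923-base HNRNPU locus, against 12.1% for HNRNPC and 46.0% for HNRNPH1. An HNRNPU count per gene therefore takes in reads from nearly the whole locus, introns of the principal transcript included, and does not separate mature mRNA from transcripts that keep introns.

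Promoter sequences from RefSeq (GRCh38.p14) were available for 9 of the 10 genes, with 15 start sites between them. They are shown for the gene the study singled out (HNRNPU), the one with the lowest fold change under SCH772984 (HNRNPD), the one whose pattern was closest to HNRNPU (HNRNPK) and the one that did not pass the test (HNRNPH1). Each stretch begins 250 bases before a RefSeq start and ends before the first base that GENCODE places in an exon of the gene. For HNRNPK, which has a pair of starts, the outer one is shown, and for HNRNPH1, which has 4, the one nearest the principal transcript. All are on the minus strand and are written 5′ to 3′ in the direction of the gene. They span chr1:244864561-244864793 for HNRNPU, chr4:82374162-82374241 for HNRNPD, chr9:83980617-83980865 for HNRNPK and chr5:179624670-179624850 for HNRNPH1. Capitals mark matches to the motifs searched, on either strand.
HNRNPU: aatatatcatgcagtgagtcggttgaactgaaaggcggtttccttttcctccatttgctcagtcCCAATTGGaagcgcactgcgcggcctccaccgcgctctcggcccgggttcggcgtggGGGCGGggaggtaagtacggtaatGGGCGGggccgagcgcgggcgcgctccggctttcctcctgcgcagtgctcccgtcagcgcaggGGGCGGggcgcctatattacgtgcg
HNRNPD: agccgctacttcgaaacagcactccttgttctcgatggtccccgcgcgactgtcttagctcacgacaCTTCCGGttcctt
HNRNPK: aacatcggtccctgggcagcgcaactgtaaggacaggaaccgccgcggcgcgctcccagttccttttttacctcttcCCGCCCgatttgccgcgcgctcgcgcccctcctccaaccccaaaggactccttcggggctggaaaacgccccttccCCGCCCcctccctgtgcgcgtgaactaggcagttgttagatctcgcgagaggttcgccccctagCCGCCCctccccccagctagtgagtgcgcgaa
HNRNPH1: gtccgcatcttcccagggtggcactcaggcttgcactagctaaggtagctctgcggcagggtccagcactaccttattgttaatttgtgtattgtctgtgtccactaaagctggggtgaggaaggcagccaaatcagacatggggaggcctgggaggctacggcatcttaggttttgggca

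The motifs were the GC box (GGGCGG), the CCAAT box (CCAAT), the ETS core (CCGGAAG), the E box (CACGTG), the TATA box (TATAAA), the NRF1 site and the YY1 core (AAGATGG), each on both strands. HNRNPU held 3 GC boxes and a pair of CCAAT boxes that overlap on opposite strands. HNRNPK held 3 GC boxes, the HNRNPD stretch 1 ETS core and the HNRNPH1 stretch none. The HNRNPK start shown lies 346 bases from that of the principal transcript and the other one 54 bases. Over its 250 bases that other start held 0 GC boxes and 2 CCAAT boxes. The HNRNPD stretch was cut to 80 bases, and its full 250 bases also held 1 GC box, 1 E box and 1 TATA box. Over the full 250 bases, a GC box was present for 7 of the 9 genes and in 42.6% of 35116 RefSeq promoters of the same length. A CCAAT box was present for 6 of 9, against 32.0% of all promoters. The ETS core, the letters to which ETS factors downstream of ERK bind, was present for 2 of 9 (HNRNPD and HNRNPF), against 8.52%. The E box, which MYC and its partner bind, was also present for 2 of 9 (HNRNPD and HNRNPM), against 6.34%. A TATA box was found for HNRNPC and HNRNPD (10.7% of all promoters), and the NRF1 site (1.03%) and the YY1 core (3.70%) for none. The median G and C content of the 15 windows was 65.6%, against 58.0% over all. A gene with several starts had more than 1 window in which to hold a motif, and a match describes the letters only.

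With DMSO the hnRNP RNAs were among the more abundant RNAs of the cells. Levels between genes were compared per length as TPM, counts divided by gene length and scaled to the same sum in every library, with the exon union as length. HNRNPA1 was highest at 716 ± 22.1 TPM (SD, n = 3), followed by HNRNPK at 676 ± 11.1, HNRNPC at 460 ± 4.88, HNRNPA2B1 at 428 ± 6.28, HNRNPM at 379 ± 7.71 and HNRNPF at 343 ± 3.60. The lower part of the order was HNRNPH1 at 203 ± 11.8 TPM, HNRNPL at 180.0 ± 3.81, HNRNPU at 160 ± 3.30 and HNRNPD at 147 ± 2.57. No neighbours in this order overlapped between libraries with DMSO. HNRNPA1 ranked 169 and HNRNPU 1078 among the 29048 genes with a count. The place of HNRNPU depended on the length used, because its exon union of 22512 bases is far longer than its principal transcript of 6858 bases. Per length of the principal transcript HNRNPU was at 523 ± 10.8 TPM, the seventh of the 10 genes, overlapping with HNRNPH1 at 524 ± 30.4. Without division by length it was the third of the 10, and its DMSO libraries held 9245 to 10160 counts each.

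**Figure D1:**
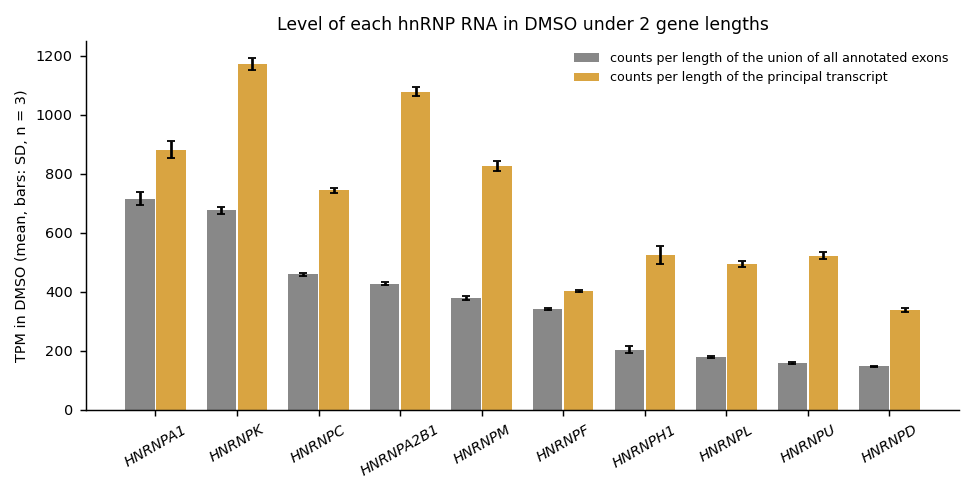
Mean level with DMSO in TPM (vertical axis) of each of the 10 hnRNP genes (horizontal axis), computed with the union of all annotated exons (grey) or the principal transcript (yellow) as gene length; error bars are the SD over 3 libraries. HNRNPU stands at 160 TPM by the first length and at 523 TPM by the second.

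The comparison of SCH772984 with DMSO asked whether ERK inhibition changes the RNA of these genes. In 9 of the 10 the RNA fell, by 0.47 to 0.98 on the log2 scale, and HNRNPH1 did not pass the test. Of all 13834 genes tested 72.8% were called at an adjusted p under 0.05, with 35.5% lower and 37.2% higher, so most genes of these cells moved and a fall of this size was common. The median log2 fold change was -0.65 over the 10 genes and 0.03 over all genes tested. Because the set was chosen with results of these libraries known, no test of the set was made. In 9 of the 10 genes all 3 SCH772984 libraries lay below all 3 DMSO libraries, as they did in 36.3% of all genes tested.

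HNRNPU RNA stood at 1040, 1066 and 1010 CPM in the DMSO libraries and at 762, 712 and 663 CPM in the SCH772984 libraries. Every SCH772984 library lay below every DMSO library. The level was 0.683 times that with DMSO, a log2 fold change of -0.55 (SE 0.060, 95% confidence interval -0.67 to -0.43), with an adjusted p of 4.53e-11 by edgeR's quasi-likelihood test with Benjamini-Hochberg adjustment. Of all genes tested, 23.5% had a lower fold change. With a minimum change of 1.5-fold 7 of the 10 genes were called lower, without HNRNPU and HNRNPK, against 21.7% of all genes tested. The deposited counts themselves overlapped, at 8452 to 9902 with SCH772984 and 9245 to 10160 with DMSO, and the groups separated once the larger SCH772984 libraries were scaled. The study drew attention to HNRNPU on the basis of these same libraries, so its direction here is not independent evidence.

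HNRNPK and HNRNPC are abundant nuclear hnRNPs, of which HNRNPK binds C-rich RNA through KH domains and HNRNPC binds uridine tracts and helps to retain RNA in the nucleus. HNRNPK stood at 976 to 1017 CPM with DMSO and 689 to 766 CPM with SCH772984, a log2 fold change of -0.47 (SE 0.059), the smallest of the 9 falls. HNRNPC stood at 964 to 977 CPM with DMSO and 625 to 673 CPM with SCH772984, a log2 fold change of -0.60 (SE 0.058). Neither range overlapped with DMSO.

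HNRNPA1 and HNRNPA2B1 are paralogs that share a pair of RNA recognition motifs and a glycine-rich tail, and HNRNPA1 is a classical repressor of exon inclusion. HNRNPA1 stood at 1022, 1091 and 1045 CPM with DMSO and 770, 692 and 648 CPM with SCH772984. Its log2 fold change was -0.59 (SE 0.062). HNRNPA2B1 stood at 1150, 1166 and 1118 CPM with DMSO and at 642, 674 and 617 CPM with SCH772984, a log2 fold change of -0.83 (SE 0.059).

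HNRNPD, also named AUF1, binds AU-rich elements and promotes the decay of mRNAs that carry them. It had the largest fall of the 10. The DMSO libraries stood at 292, 298 and 300.0 CPM and the SCH772984 libraries at 161, 143 and 149 CPM, so that the level was 0.506 times that with DMSO (log2 fold change -0.98, SE 0.063, adjusted p = 2.14e-18 by edgeR's quasi-likelihood test with Benjamini-Hochberg adjustment). HNRNPL, which binds CA repeats, stood at 344 to 363 CPM with DMSO and 195 to 217 CPM with SCH772984, a log2 fold change of -0.79 (SE 0.061). HNRNPM, which binds GU-rich RNA and is known for its effect on CD44 splicing, stood at 596 to 629 CPM with DMSO and 368 to 399 CPM with SCH772984, a log2 fold change of -0.69 (SE 0.059).

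HNRNPF and HNRNPH1 belong to the F/H subfamily, whose members bind G-tracts through quasi-RNA recognition motifs, and their values lay apart. HNRNPF stood at 323, 327 and 316 CPM with DMSO and 208, 178 and 179 CPM with SCH772984, a log2 fold change of -0.78 (SE 0.064, 95% confidence interval -0.91 to -0.65). HNRNPH1 stood at 523, 564 and 582 CPM with DMSO and 483, 586 and 501 CPM with SCH772984. The HNRNPH1 ranges overlapped, and SCH772984 replicate 2 was above every DMSO library. Its log2 fold change was -0.09 (SE 0.065, 95% confidence interval -0.23 to 0.04), with an adjusted p of 0.185 by edgeR's quasi-likelihood test with Benjamini-Hochberg adjustment. With scaling by library size alone, which raises the median of all genes by 0.17 on the log2 scale, the HNRNPH1 value was 0.08, while the 9 genes above still fell, by 0.30 (HNRNPK) to 0.81 (HNRNPD). Under that scaling 28.3% of all genes tested were lower and 45.1% higher, against 35.5% and 37.2% above. Without SCH772984 replicate 2 the HNRNPH1 value was -0.19 and passed the test (adjusted p = 0.0125 by edgeR's quasi-likelihood test with Benjamini-Hochberg adjustment).

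**Figure D2:**
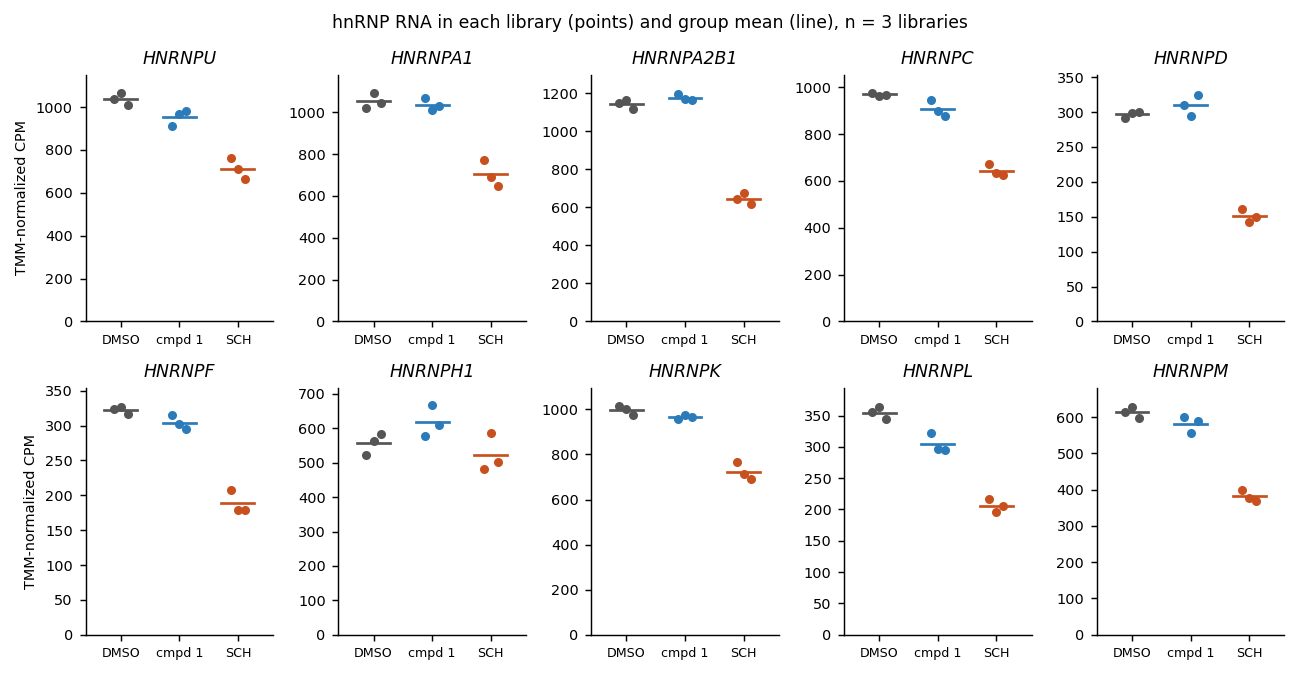
Scaled level (TMM-normalized CPM, vertical axis from 0) of each hnRNP gene in every library; points are single libraries, lines are group means over 3 libraries, and the groups are DMSO, compound 1 (cmpd 1) and SCH772984 (SCH). In 9 panels the SCH772984 points lie below all DMSO points, and in the HNRNPH1 panel they overlap with them.

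The comparison of compound 1 with DMSO asked the same of TBK1/IKKε inhibition. None of the 10 genes passed the adjusted threshold in edgeR's quasi-likelihood test with Benjamini-Hochberg adjustment, and 0.864% of all 12849 genes tested did (0.374% lower and 0.49% higher). At an unadjusted p under 0.05, the threshold of the study's own gene lists, 1 of the 10 was lower (HNRNPL) and 1 higher (HNRNPH1), where 7.69% of all genes tested were lower and 7.35% higher. DESeq2 on the same genes gave no adjusted call among the 10 either. The log2 fold changes ran from -0.21 to 0.16, 7 of the 10 were below 0, and the median was -0.06, against 0.00 over all genes tested.

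HNRNPU stood at 913, 969 and 980 CPM with compound 1, each below the lowest DMSO library at 1010 CPM. The difference was small. The level was 0.921 times that with DMSO, a log2 fold change of -0.12 (SE 0.060, 95% confidence interval -0.25 to 0.01), with an adjusted p of 0.369 by edgeR's quasi-likelihood test with Benjamini-Hochberg adjustment. The unadjusted p of the same edgeR test was 0.0671, so HNRNPU did not pass 0.05 there either. The study names it among stem cell genes lowered by both inhibitors. Over 10 other ways of fitting all libraries the unadjusted p ran from 0.0469 (DESeq2 on all genes) to 0.150 (scaling by library size alone). The lowest of the 3 values belonged to compound 1 replicate 1, the library that stood apart, and without it the log2 fold change was -0.09. All 3 compound 1 libraries lay below all DMSO libraries in 5 of the 10 genes (HNRNPU, HNRNPC, HNRNPF, HNRNPK and HNRNPL) and above them in 1 (HNRNPA2B1), against 10.6% and 10.3% of all genes tested. With scaling by library size alone the counts were 4 and 2, and the share of all genes under that scaling was not computed.

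HNRNPL had the lowest fold change of the 10 with compound 1. Its compound 1 libraries stood at 323, 297 and 295 CPM and its DMSO libraries at 356, 363 and 344 CPM, without overlap. The log2 fold change was -0.21 (SE 0.063, 95% confidence interval -0.35 to -0.08), with an adjusted p of 0.120 by edgeR's quasi-likelihood test with Benjamini-Hochberg adjustment. HNRNPH1 stood at 578, 668 and 609 CPM with compound 1, of which the lowest overlapped with DMSO, and its log2 fold change was 0.16 (SE 0.072, 95% confidence interval 0.00 to 0.31). Both passed the adjusted threshold in edgeR's quasi-likelihood test once compound 1 replicate 1 was left out, with HNRNPL at -0.25 (adjusted p = 0.000931) and HNRNPH1 at 0.20 (adjusted p = 0.00735). That fit called 798 genes lower and 453 higher over the whole table, against 48 and 63 with all libraries. Among the other genes, HNRNPD stood at 310, 294 and 325 CPM (log2 fold change 0.06, 95% confidence interval -0.07 to 0.20) and HNRNPA2B1 at 1196, 1171 and 1166 CPM (0.04, 95% confidence interval -0.08 to 0.16), the pair with the largest falls under SCH772984. HNRNPA1 (-0.02), HNRNPK (-0.04), HNRNPM (-0.07), HNRNPF (-0.08) and HNRNPC (-0.09) had intervals that crossed 0.

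The inhibitors were also compared with each other, without the DMSO libraries. All 10 genes were lower with SCH772984 than with compound 1, where 66.3% of all 13863 genes tested were called and 32.6% were lower, and the median log2 fold change of the 10 was -0.56. The libraries did not overlap in 9 of the 10, with SCH772984 below, as in 34.0% of all genes tested. With a minimum change of 1.5-fold 4 of the 10 were called lower, against 20.9% of all genes. The largest difference was again in HNRNPD (-1.04, SE 0.083), followed by HNRNPA2B1 (-0.87, SE 0.077). The difference in HNRNPU was -0.42 (SE 0.081, 95% confidence interval -0.59 to -0.25), with an adjusted p of 0.000114 by edgeR's quasi-likelihood test with Benjamini-Hochberg adjustment. HNRNPH1 had the smallest, at -0.24 (SE 0.089, adjusted p = 0.0214 by the same edgeR test), and its ranges overlapped. That call was lost in 5 of 16 alternative fits, among them those without compound 1 replicate 2 (-0.19), without SCH772984 replicate 1 (-0.19) and without SCH772984 replicate 3 (-0.21). The comparisons with DMSO share the same 3 control libraries, and their values are given side by side for that reason without a correlation.

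**Figure D3:**
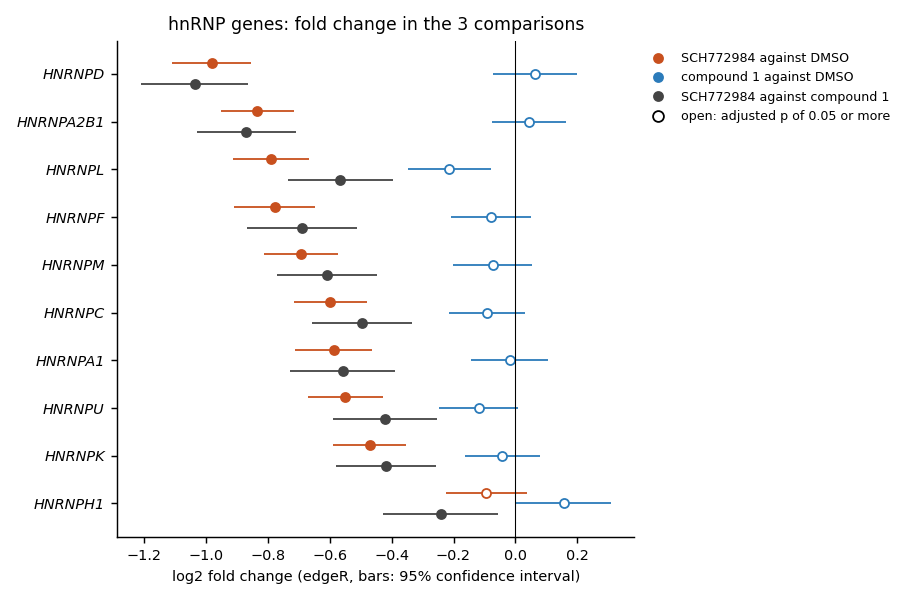
Log2 fold change (horizontal axis, bars are 95% confidence intervals) of each hnRNP gene for SCH772984 against DMSO (orange), compound 1 against DMSO (blue) and SCH772984 against compound 1 (dark grey), with open points for an adjusted p of 0.05 or more in edgeR. HNRNPD lies at -0.98 and HNRNPU at -0.55 for SCH772984 against DMSO, and the blue points lie between -0.21 and 0.16.

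The summed counts of the 10 genes were 0.702% ± 0.00681 of all counts with DMSO (SD, n = 3), 0.699% ± 0.0106 with compound 1 and 0.523% ± 0.0223 with SCH772984. The lowest DMSO library was at 0.695% and the highest SCH772984 library at 0.543%. Within this pool the genes did not keep their proportions, as shown by the log2 ratio of each gene to the geometric mean of the other 9, a value that does not depend on library scaling. For HNRNPU the ratio was 0.76, 0.76 and 0.72 with DMSO, 0.57, 0.69 and 0.70 with compound 1 and 0.88, 0.85 and 0.80 with SCH772984. HNRNPU was thus a larger part of the pool in every SCH772984 library and a smaller part in every compound 1 library than in any DMSO library, by means of 0.10 and -0.09 on the log2 scale. Without compound 1 replicate 1 the mean ratio with compound 1 was 0.70 in place of 0.65, against 0.74 with DMSO. HNRNPH1 shifted most. Its ratio was -0.34, -0.26 and -0.17 with DMSO and 0.15, 0.54 and 0.35 with SCH772984, a difference of 0.60. HNRNPK also gained (0.19), while HNRNPD (-0.38), HNRNPA2B1 (-0.22), HNRNPL (-0.17) and HNRNPF (-0.16) lost. These ratios are descriptions and were not tested.

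**Figure D4:**
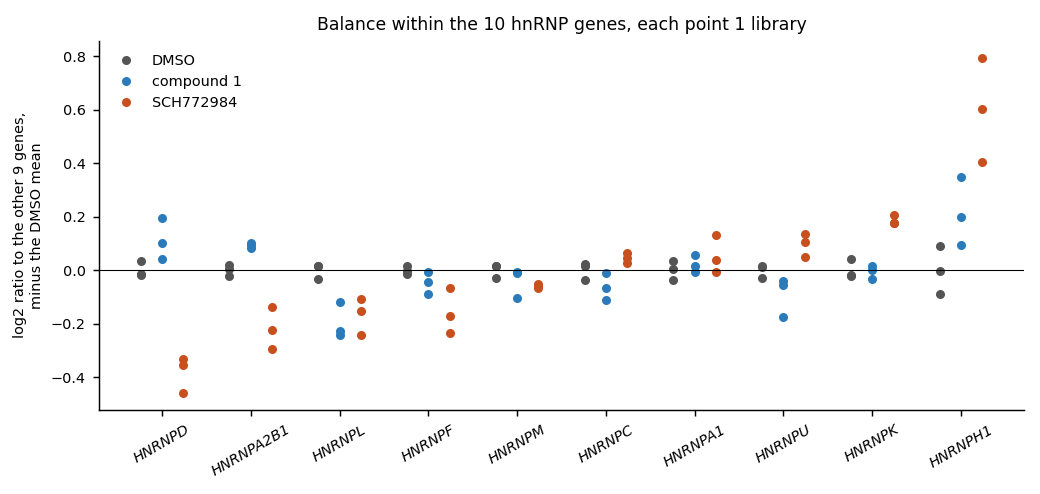
Log2 ratio of each hnRNP gene to the geometric mean of the other 9, minus its DMSO mean (vertical axis), with each point 1 library; genes are ordered by their SCH772984 fold change. With SCH772984 (orange) HNRNPD lies below 0 by 0.38 and HNRNPH1 above 0 by 0.60 on average, and HNRNPU by 0.10.

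The pattern of HNRNPU over the 9 libraries was also set against that of 7256 protein-coding genes with a mean of at least 20 CPM, by the Euclidean distance of log2 CPM centred per gene. The nearest were PLEKHB2 (0.103), MFN2 (0.109), UBE2G1 (0.113), CORO1C (0.113) and SRP68 (0.119). Among the hnRNP genes HNRNPK was nearest, at rank 12 (0.141), followed by HNRNPC at rank 80, HNRNPA1 at rank 144 and HNRNPM at rank 312. HNRNPH1 (rank 2682) and HNRNPD (rank 3475) were the farthest, from the weaker and the stronger side. The 9 libraries fall into 3 treatment groups and share their scaling, so this closeness is a description only.

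Of 26 other hnRNP genes 23 could be tested, and with SCH772984 20 fell and 2 rose (median log2 fold change -0.70), where 35.5% of all genes tested were lower and 37.2% higher. The lowest were HNRNPAB, a relative of HNRNPD, at -1.75 (SE 0.061) and PTBP1, the polypyrimidine tract binding repressor of exons, at -1.12 (SE 0.059). The 2 that rose were HNRNPH2, the X-linked paralog of HNRNPH1, at 0.40 (SE 0.079) and PCBP4, a poly(C)-binding protein, at 0.38 (SE 0.084). The F/H subfamily thus ranged from HNRNPH3 at -1.12 and HNRNPF at -0.78, through HNRNPH1 at -0.09, to HNRNPH2 at 0.40. HNRNPUL1 (-0.90) and HNRNPUL2 (-0.65), the relatives of HNRNPU, both fell. With compound 1 none of the 23 passed the adjusted threshold in edgeR, 3 were lower and 0 higher at an unadjusted p under 0.05 (7.69% and 7.35% of all genes), and the median was -0.02. PTBP1 was the lowest of them, at -0.26 with an adjusted p of 0.0613 by edgeR's quasi-likelihood test with Benjamini-Hochberg adjustment.

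Among the SR proteins and TRA2 factors, which often act on exons in opposition to hnRNPs, 13 of 14 could be tested. With SCH772984 9 fell and 2 rose, against 35.5% and 37.2% of all genes tested, and the median was -0.65, against 0.03 over all. SRSF1, the classical antagonist of HNRNPA1 in exon choice, was at -1.40 (SE 0.074) and TRA2B at -1.08 (SE 0.066), while SRSF5 was at 0.33 (SE 0.067) and SRSF11 at 0.33 (SE 0.066). With compound 1, 0 of the 13 were lower and 2 higher at an unadjusted p under 0.05, where 7.69% and 7.35% of all genes were, these 2 being SRSF5 and SRSF6 (log2 fold change 0.16, SE 0.064). SRSF5 was the only gene of the 5 lists that passed the adjusted threshold with compound 1, as 0.864% of all genes tested did. It rose from 1243 to 1322 counts with DMSO to 1716 to 1914 counts, a log2 fold change of 0.48 (SE 0.070, adjusted p = 0.00599 by edgeR's quasi-likelihood test with Benjamini-Hochberg adjustment). Of 10 nuclear import factors and modifying enzymes that act on hnRNPs or SR proteins, 8 fell with SCH772984 and 1 rose, against the same 35.5% and 37.2% of all genes, and the median was -0.92. With compound 1, 0 of the 10 passed the adjusted threshold in edgeR, and 2 were lower and 0 higher at an unadjusted p under 0.05, where 7.69% and 7.35% of all genes were. TNPO1, the import receptor of HNRNPA1, was at -0.90, the arginine methyltransferase PRMT1 at -0.98, the importin KPNA2 at -1.60 (SE 0.061) and the SR protein kinase SRPK1 at -1.03 (SE 0.064), and SRPK2 was at 0.24 (SE 0.074).

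Genes of the nuclear scaffold, the compartment with which HNRNPU is associated, were mixed. With SCH772984 6 of 8 fell and 2 rose, against 35.5% and 37.2% of all genes tested, and the median was -0.57. The B-type lamins LMNB1 and LMNB2 were at -1.92 (SE 0.063) and -1.35 (SE 0.060), the scaffold attachment factors SAFB and SAFB2 at -0.69 and -0.45, and NUMA1, a spindle and nuclear matrix protein, at 0.51 (SE 0.069). MATR3 was at 0.60 (SE 0.169), but its name stands on 2 rows of the table and the row used held only 68 to 185 counts a library, so its value is uncertain. None of the 8 passed the adjusted threshold with compound 1 in edgeR, 1 was lower and 0 higher at an unadjusted p under 0.05 (7.69% and 7.35% of all genes), and the median was -0.02.

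**Figure D5:**
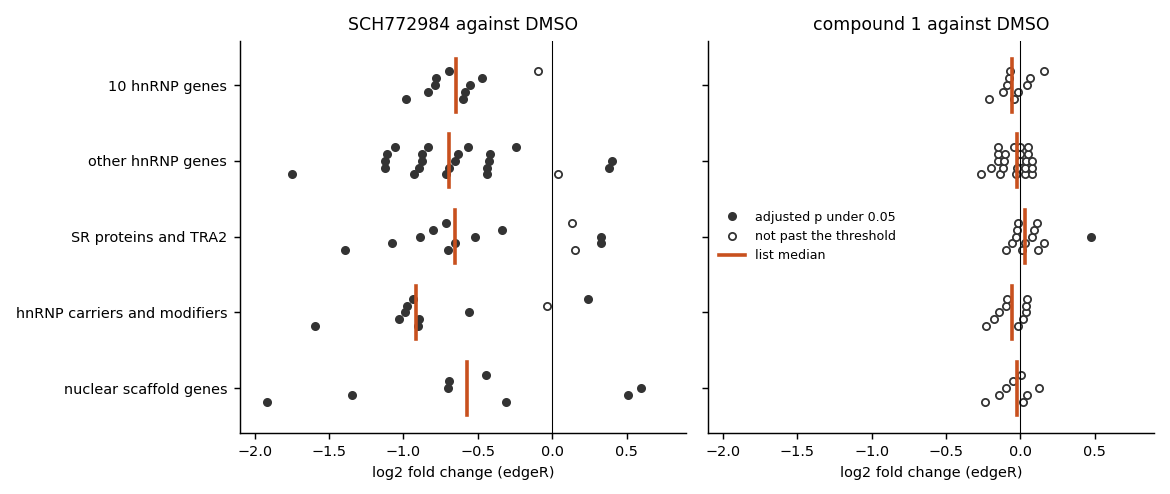
Log2 fold change (horizontal axis) of each tested gene of the 10 hnRNP genes and of 4 related lists (rows), with SCH772984 (left) and compound 1 (right) against DMSO; filled points have an adjusted p under 0.05 in edgeR and the orange bars are list medians. The SCH772984 medians run from -0.92 to -0.57, and on the right SRSF5 at 0.48 is the filled point.

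Several of the genes have close copies or overlapping neighbours that could share reads, and the strand setting of the counting is not given in the sources used here. The table names 100 copies of the 10, those with the name of a gene followed by P and a number, of which 34 had counts. They held 5394 counts in all against 598896 for the 10 genes, or 0.893% of the sum of both. HNRNPA1 had 75 such copies, with 1.91% of the summed counts of gene and copies, and HNRNPC had the highest such share, 3.01%, mainly HNRNPCP2 with 2166 counts. The share was 0.0179% for HNRNPU. Adding the copies to their parent genes left every call of the 10 genes as it was. HNRNPU overlaps the opposite-strand gene COX20 over 4420 bases, but COX20 held only 101 counts over all libraries against 83870 for HNRNPU. HNRNPA2B1 overlaps NFE2L3 over 14069 bases and CBX3 over 368 bases, both on the opposite strand. NFE2L3 held 1664 to 1792 counts with DMSO and 617 to 754 with SCH772984, equal over all libraries to 14.1% of the HNRNPA2B1 counts, and CBX3 held 26.2%. Without strand information reads in these overlaps, and in that of HNRNPU with COX20, cannot be told apart. How many reads fell in them was not measured, so the falls of HNRNPA2B1 and HNRNPU are uncertain in size. The other overlapping genes held at most 0.287% of the counts of their hnRNP gene, and HNRNPC and HNRNPF overlapped none.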

How the data were processed

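RNA-Seq of MIA PaCa-2 cells was carried out by a sequencing company for the authors, and the deposited table holds raw read counts per gene, whole numbers without normalization. The submitters' processing notes name HISAT2 2.0.5, featureCounts 1.5.0-p3 and hg38, and the strand setting is not given in the sources used here. All 58735 genes matched GENCODE release 29 (Ensembl release 94).

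Libraries were grouped by their labels. Each pair of conditions was fitted with edgeR 4.0.16 in R 4.3.3 (quasi-likelihood test, robust, TMM factors, filterByExpr with a minimum count of 10 and a minimum total of 15). A gene was called at a Benjamini-Hochberg adjusted p under 0.05 over all genes tested. DESeq2 1.42.0, other scalings and filters, a replicate block, a 1.5-fold minimum and leaving out each library were alternatives. The length of the principal transcript, leaving out libraries for shares and ratios, and library-size CPM for overlap were added after seeing the data. The 10 genes and the lists were chosen with earlier results of these data known. All 10 genes were named, with the 2 largest rises and the 2 largest falls called in each list and the 5 genes nearest to HNRNPU; HNRNPH3, HNRNPUL1, HNRNPUL2, TNPO1, PRMT1, SAFB and SAFB2 were named after their values were seen. The fits were tried on simulated data in which 200 genes were changed, evenly up and down. Far more genes moved in SCH772984 against DMSO, so the simulation does not check the scaling there. Standard errors cover counting error and the spread between libraries. Protein sequences and a promoter of HNRNPA1 were not used here.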

Additional observations from a re-analysis of the deposited data

How the results depend on the processing

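The signs and calls of the 10 hnRNP genes mostly did not depend on the settings tried. In each comparison 161 log2 fold changes were tallied. Of these 1 was the main HNRNPU value read at an unadjusted p under 0.05, and the rest were refits. The other genes were not tallied at that threshold. For SCH772984 against DMSO 159 of 161 had the direction and the side of the threshold of the values above. HNRNPU ran from -0.59 to -0.38 over the other settings and from -0.61 to -0.51 with 1 library left out. The exceptions were HNRNPH1 under library-size scaling (0.079) and without SCH772984 replicate 2. For compound 1 against DMSO it was 157 of 161, and HNRNPU ran from -0.13 to -0.09 over the other settings and from -0.14 to -0.09 with 1 library left out, at unadjusted edgeR p-values of 0.0492 to 0.198. HNRNPA1 turned to 0.0096 under library-size scaling, and ran from -0.044 to 0.0035 with 1 library left out, the value above 0 being that without DMSO replicate 2. The number of the 10 genes lower with compound 1 was 1 at an unadjusted p under 0.05, and the number higher was also 1. At the adjusted threshold both numbers were 0 to 1 with 1 library left out, the 1 each time being without compound 1 replicate 1, where 6.1% of all genes tested were called lower and 3.46% higher. With a minimum change of 1.5-fold, 7 of the 10 were called lower for SCH772984 against DMSO, HNRNPU and HNRNPK not among them, and 4 of the 10 for SCH772984 against compound 1, where 21.7% and 20.9% of all genes tested were. In the latter comparison HNRNPH1 lost its call under library-size scaling (-0.11), with at least 10 counts in every library and without compound 1 replicate 2, SCH772984 replicate 1 or SCH772984 replicate 3. The rank of HNRNPU with DMSO was 3 by CPM and 7 by principal transcript, against 9. The cause of these shifts was not tested.

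Whether the replicate numbers pair the libraries cannot be settled with 3 libraries per condition. Same-numbered libraries correlated in their deviations at 0.0196, 0.0115 and 0.0471 for SCH772984 and DMSO and at 0.0773, -0.0224 and -0.0177 for compound 1 and DMSO. For SCH772984 and compound 1 the values were -0.0521, 0.107 and -0.0787. Not every library correlated best with its own number. With the replicate number as a block HNRNPU was at -0.55 for SCH772984, -0.12 for compound 1 (edgeR adjusted p = 0.355) and -0.42 between the inhibitors, 9, 0 and 10 of the 10 genes were called lower, against 35.6%, 1.7% and 31.9% of all genes tested, and no call among the 10 changed. Over the whole table the block raised the compound 1 calls from 48 to 219 lower and from 63 to 193 higher. Each of the 10 genes held at least 1697 counts in every library. Whether depth or the number of libraries sets the count of compound 1 calls was not tested.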
